A study of Mus musculus with 2 samples.

Results

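The type 17 genes described here are Il17a, Il17f, Il22, Il23r, Il17ra, Il17re, Rora and Maf, chosen by name and found as 8 of the 55246 gene rows of the deposited table. They were measured by RNA sequencing of regulatory T cells (Treg cells) of the colon lamina propria, which is the connective tissue below the gut epithelium, in female mice. One genotype is wild type (WT) and the other, Exon2KO, carries a Foxp3 allele without exon 2, also written Foxp3∆2. There was 1 library per genotype. Neither the age of the mice, the number pooled, the zygosity nor the sorting gate is stated in the labels. No difference below can be set against a spread between samples, and every interval covers counting error only. The comparison asks how transcription in colonic Treg cells differs when Foxp3 lacks exon 2.

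Type 17 T cells secrete IL-17A, IL-17F and IL-22, cytokines that act on epithelium and stroma to recruit neutrophils and to induce antimicrobial proteins. The nuclear receptor RORα (Rora) takes part in driving this programme, and signals through the IL-23 receptor and STAT3 sustain it. In the colon a large population of Treg cells depends on c-Maf and produces IL-10, so parts of the programme are shared by Treg cells and their inflammatory counterparts. Foxp3 restrains RORα, and for human FOXP3 the part encoded by exon 2 has been described as the contact with it.

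Reads assigned to genes numbered 16281133 for WT and 15412425 for Exon2KO. All 13 T cell identity genes and all 12 Treg genes that were listed as markers had enough reads to be tested, meaning at least 10 over both libraries. For Foxp3, 6991 WT reads and 20946 Exon2KO reads gave a log2 ratio of 1.56 (95% interval 1.52 to 1.60); a whole-gene count cannot check a deletion of 1 exon. Summed over the 12 genes, Treg markers were at 9649 CPM (counts per 1000000 reads of the scaled library) in WT and 11363 in Exon2KO, yet 8 of the 12 were at least 2-fold lower and only Foxp3 was at least 2-fold higher. Ctla4 alone gave 5056 and 8270 CPM of these sums, and the other 11 genes, a sum added after the values were seen, came to 4593 and 3093 CPM. The lowest ratio was that of Ikzf2, which encodes Helios, at -4.29 (-4.44 to -4.16). Immunoglobulin genes took 6.49% and 5.93% of the reads, so RNA of B lineage cells was present in both libraries.

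Il17a and Il17f had the highest ratios of the 8 genes, and Il23r encodes the receptor subunit that sustains their transcription. The 250 bases before the start of each are therefore shown, from RefSeq on GRCm38.p6, 5′ to 3′ on the strand of the gene. The windows are chr1:20730655-20730904 (plus strand) for Il17a, chr1:20784271-20784520 (minus) for Il17f and chr6:67491856-67492105 (minus) for Il23r. Capitals mark AGGTCA or its reverse complement TGACCT, the core motif of ROR response elements.
Il17a: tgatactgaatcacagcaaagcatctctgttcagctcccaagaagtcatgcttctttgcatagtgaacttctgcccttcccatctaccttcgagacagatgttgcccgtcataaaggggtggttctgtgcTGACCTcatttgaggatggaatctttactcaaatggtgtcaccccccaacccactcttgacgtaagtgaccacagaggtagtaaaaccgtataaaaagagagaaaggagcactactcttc
Il17f: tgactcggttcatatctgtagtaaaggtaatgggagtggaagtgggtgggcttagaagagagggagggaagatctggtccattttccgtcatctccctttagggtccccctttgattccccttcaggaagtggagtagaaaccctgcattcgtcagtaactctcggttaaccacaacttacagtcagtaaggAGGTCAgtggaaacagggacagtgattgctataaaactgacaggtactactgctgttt
Il23r: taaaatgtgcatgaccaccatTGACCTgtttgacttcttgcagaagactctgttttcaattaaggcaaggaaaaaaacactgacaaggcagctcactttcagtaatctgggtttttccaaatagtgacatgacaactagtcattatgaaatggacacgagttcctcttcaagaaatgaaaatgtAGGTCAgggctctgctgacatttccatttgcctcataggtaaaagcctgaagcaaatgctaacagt
The motif occurred 1 time before Il17a, 1 time before Il17f and 2 times before Il23r. The first letter of the match lay 120 bases before the start in Il17a and 58 in Il17f, and 229 and 66 bases before it in Il23r. Of all 32851 promoter windows of this length, 14.0% held the motif on either strand. Promoters of 6 of the 8 genes were in the table, and the windows of Il22, Il17re and Rora did not hold these letters. The core of MAF recognition elements, TGCTGAC or its reverse complement GTCAGCA, was found 1 time before Il17a and 1 time before Il23r, against 3.81% of all windows. In Il17a it overlaps the ROR motif by 4 bases. The STAT motif TTCNNNGAA, in 7.02% of all windows, was in none of the 6. These matches are letters in a sequence, and binding was not measured. The windows follow RefSeq starts, which differ from the Ensembl genes as counted in 3 cases. For Il17f the Ensembl gene extends further upstream to position 20790617. The Il17re window (113458521 to 113458770) lies inside the Ensembl gene, which starts at 113458484. The Il22 window ends at 118204963, past the Ensembl start at 118204942.

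All 8 genes had enough reads to be tested. Of these, 6 were at least 2-fold higher in the Exon2KO library (Il17a, Il17f, Il22, Il17re, Il23r and Maf), none was at least 2-fold lower, and Il17ra and Rora lay within 2-fold. Over the 17363 genes tested, 1628 (9.38%) were at least 2-fold higher and 1413 (8.14%) at least 2-fold lower. Log2 ratios over the tested genes had their median at 0.0035, with quartiles at -0.33 and 0.36. In bulk RNA more cells of a type and more RNA per cell cannot be told apart, which holds for each ratio that follows.

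**Figure D1:**
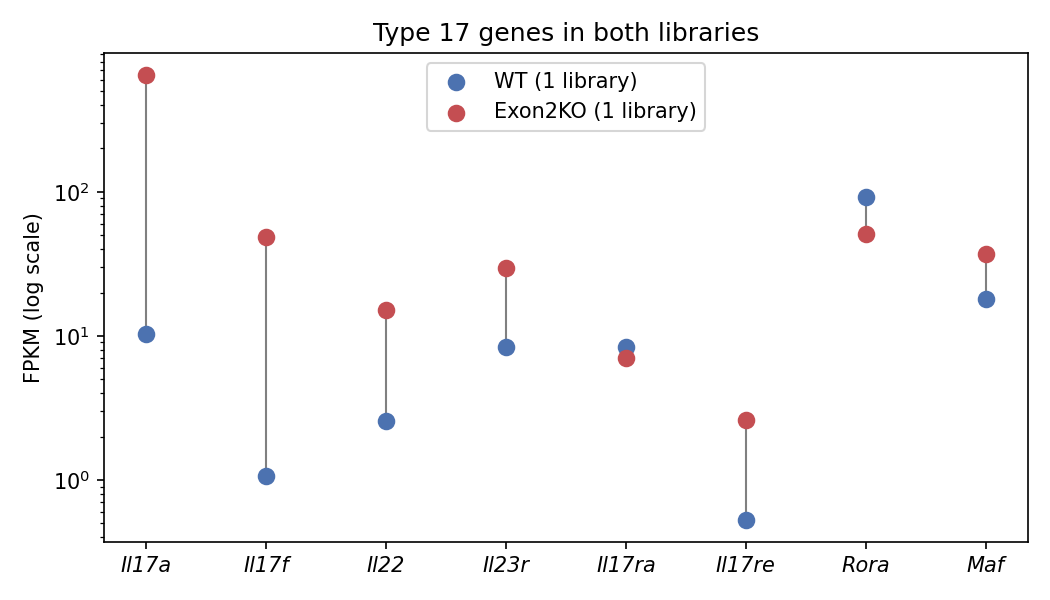
Level of each type 17 gene in FPKM (reads relative to gene length and to library size, log axis) in the WT library and the Exon2KO library; each point is 1 library and the grey line joins the 2 values of a gene. Il17a went from 10.3 to 645 FPKM, while Rora, the highest in WT at 92.5, and Il17ra were within 2-fold.

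The cytokine genes differed most. Il17a (ENSMUSG00000025929, chromosome 1, 20730905 to 20734496, plus strand, GRCm38), the founding IL-17 cytokine, had 190 reads in WT and 12014 in Exon2KO, or 12.1 and 751 CPM. The Exon2KO level was 62.1 times the WT level, with a log2 ratio of 5.94 (95% interval 5.75 to 6.17). In the order of FPKM among the tested genes Il17a was at rank 4224 in WT and rank 83 in Exon2KO, so a moderately abundant transcript of WT was among the most abundant ones of Exon2KO. It took 0.00117% of the WT reads (95% Wilson interval 0.00101 to 0.00135) and 0.0780% of the Exon2KO reads (0.0766 to 0.0794).

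Il17f (ENSMUSG00000041872, chromosome 1, 20777146 to 20790617, minus strand), whose product pairs with IL-17A or with itself, was counted 34 times in WT and 1551 times in Exon2KO. The log2 ratio was 5.41 (4.996 to 6.02), 44.8 times the WT level, and its interval overlaps that of Il17a. The 2 genes lie 42.6 kb apart on opposite strands. Per length, Il17a exceeded Il17f in both libraries, by an FPKM ratio of 9.65 in WT and 13.4 in Exon2KO. The next gene beyond Il17f with enough reads, Mcm3, a replication helicase subunit whose nearer end lies 12.4 kb from Il17f, was at -0.22 (-0.38 to -0.07). The high ratio was thus seen in both IL-17 genes of the locus and not in this neighbour.

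Il22 (ENSMUSG00000074695, chromosome 10, 118204942 to 118210047, plus strand) encodes a cytokine that acts on epithelial cells. Its reads numbered 45 in WT and 269 in Exon2KO, for a log2 ratio of 2.50 (2.09 to 3.04). Iltifb, a near-identical copy of Il22, had 2 and 22 reads (2.57, 1.41 to 6.57), so the division of reads between the copies is uncertain. The flanking genes Mdm1 and Gm9029 had log2 ratios of -0.22 and -0.21, with intervals that include 0. Its level was 2.57 FPKM in WT (rank 8476 of the tested genes) and 15.2 FPKM in Exon2KO (rank 3215). Per length Il17a was 4.002 times as high as Il22 in WT and 42.3 times in Exon2KO.

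**Figure D2:**
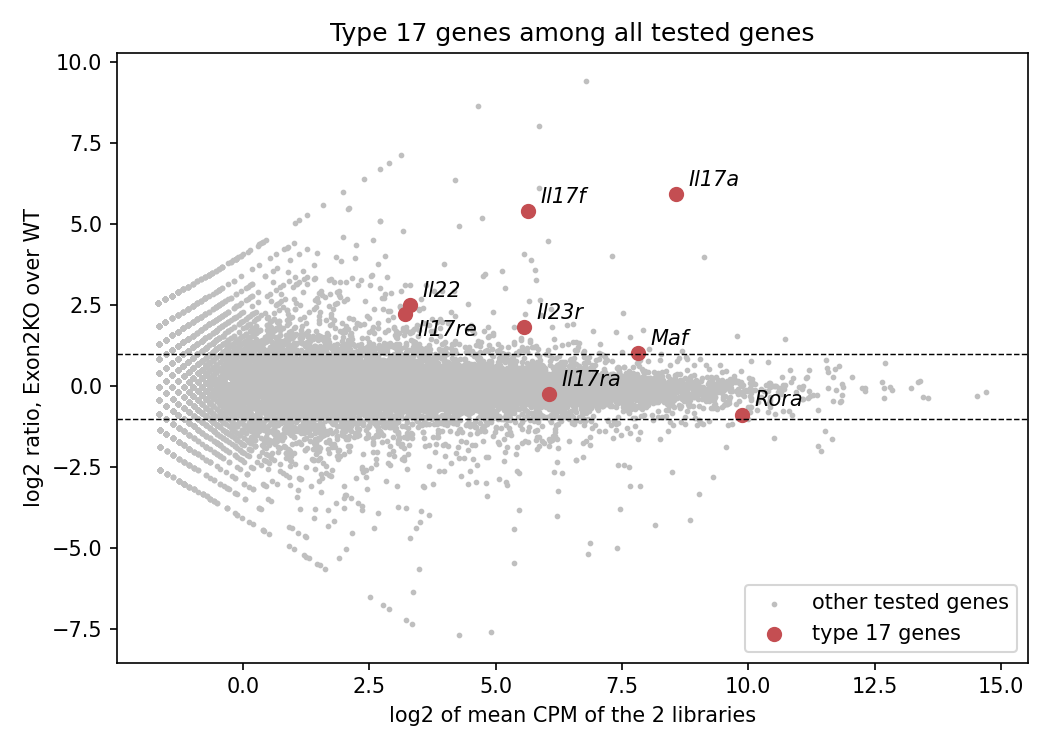
Log2 ratio of Exon2KO over WT against the log2 of the mean CPM of the 2 libraries for every tested gene (grey) with the 8 type 17 genes in red; dashed lines mark 2-fold. Il17a and Il17f, at 5.94 and 5.41, stand far above the bulk of genes of like abundance, Maf at 1.03 touches the upper line and Rora at -0.88 lies just inside the lower one.

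Among the receptors, the ratios parted. Il23r (ENSMUSG00000049093, chromosome 6, 67422932 to 67491855, minus strand) encodes the specific subunit of the IL-23 receptor. Its 326 reads in WT compare with 1172 in Exon2KO, at a log2 ratio of 1.81 (1.64 to 2.00), or 3.53 times the WT level. Its partner chain Il12rb1, which IL-12 receptors share, was at 0.28 (0.12 to 0.44), and the IL-12 receptor chain Il12rb2 was at 0.09 (-0.39 to 0.58). The higher level was therefore in the IL-23-specific chain, while both IL-12 receptor chains were within 2-fold.

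Il17re (ENSMUSG00000043088, chromosome 6, 113458484 to 113470758, plus strand), the receptor chain for IL-17C, was covered by 49 WT reads and 244 Exon2KO reads, with a log2 ratio of 2.24 (1.84 to 2.76). Its level remained low, at 0.53 FPKM in WT and 2.61 in Exon2KO. Il17rc, the chain that binds IL-17A and IL-17F, begins 0.7 kb further along the chromosome and had 28 and 39 reads (0.43, -0.29 to 1.21). Il17ra (ENSMUSG00000002897, chromosome 6, 120463247 to 120487559, plus strand), the chain common to the IL-17 receptors, had 1137 and 971 reads, a log2 ratio of -0.25 (-0.38 to -0.13). Per length Il17ra was 15.7 times as high as Il17re in WT and 2.70 times in Exon2KO. The IL-17C chain was thus past 2-fold and the common chain was not.

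Neither transcription factor was clearly past 2-fold. Rora (ENSMUSG00000032238, chromosome 9, 68653786 to 69388246, plus strand), which encodes RORα, had the highest level per length of the 8 genes in WT, at 92.5 FPKM, against 50.8 in Exon2KO. Its reads numbered 19059 and 10568. The log2 ratio was -0.88 (-0.91 to -0.84), short of 2-fold. Gm15511, annotated antisense within Rora, had 44 and 26 reads, too few to move the Rora count.

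Maf (ENSMUSG00000055435, chromosome 8, 115682942 to 115707794, minus strand) encodes c-Maf, a bZIP factor needed for IL-10 in T cells. Its log2 ratio was 1.03, from 2336 reads in WT and 4853 in Exon2KO. The 95% interval, 0.96 to 1.10, includes the 2-fold threshold of 1, so Maf is at the threshold and not clearly past it. In the order of log2 ratios, the intervals of Il17a and Il17f overlapped, as did those of Il22 and Il17re and of Il17re and Il23r. Those of Il17f and Il22, of Il23r and Maf, of Maf and Il17ra, and of Il17ra and Rora did not overlap.

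Loci that flank the members fell into named genes and transcripts that the authors' table lists without a gene name. Named genes beside Il17re, Il17ra, Rora and Maf were within 2-fold. Their log2 ratios were 0.17 for Jagn1 beside Il17re, -0.69 for Tmem121b beside Il17ra, -0.35 for Vps13c beside Rora and -0.14 for Cdyl2 beside Maf. On the far side of Il17a the nearest such gene was Gm10075, at 0.56, 1577 kb away. Of the unnamed transcripts, 3 were at least 2-fold higher. The one 2.4 kb from Il23r, on its strand, had 40 and 233 reads (2.46, 2.03 to 3.04), the one 0.8 kb from Maf, on the opposite strand, had 62 and 194 (1.59, 1.20 to 2.06), and the one 15.3 kb from Il17ra had 29 and 69 (1.17, 0.58 to 1.90). The unnamed transcript 5.0 kb beyond Rora was within 2-fold, at -0.83 (-1.48 to -0.26).

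An assumed spread between samples changed how many of the 8 genes were called. With that spread, written as a biological coefficient of variation (BCV), set to 0.2, 5 of the 8 genes were called higher by edgeR's exact test at an adjusted p-value below 0.05, against 3.33% of all tested genes. These were Il17a (adjusted p = 1.48e-27), Il17f (4.54e-22), Il22 (9.54e-06), Il17re (0.000114) and Il23r (0.00106) by edgeR, while Maf (0.137), Rora (0.260) and Il17ra (1) were not called. With a BCV of 0.4, only Il17a (8.22e-06) and Il17f (6.52e-05) were called by edgeR, against 0.495% of all tested genes. The authors' deposited table lists adjusted p-values below 0.05 for the same 5 genes as higher, against 2.37% of the 22447 genes it compares. These p-values run from 1.92e-27 for Il17a to 0.00137 for Il23r, near the edgeR values at a BCV of 0.2. Both sets come from the same counts, and with 1 library per genotype neither could estimate a spread between samples. The authors' list is therefore no separate evidence for these 5 genes. The authors' log2 fold changes were 5.96 for Il17a and 1.03 for Maf, with an adjusted p-value of 0.165 for Maf.

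Other genes of the pathway were read from 7 lists with 74 genes, of which 63 were tested. Of these, 12 (19.0%) were at least 2-fold higher in Exon2KO and 1 at least 2-fold lower, and their median log2 ratio was -0.04. The lists were drawn up with earlier results of these libraries known, so this share is a description.

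Type 17 effector and surface genes held 7 of the 12 higher genes, among 12 tested. Ccl20, the ligand of CCR6, went from 1031 to 16679 reads, at a log2 ratio of 3.99 (3.90 to 4.08). Ccr6 itself, the homing receptor of type 17 cells, went from 1355 to 2833 reads (1.04, 0.94 to 1.13), an interval that includes the 2-fold threshold. The neutrophil attractant Cxcl3 was at 2.25 (2.15 to 2.35), Il10 at 1.46 (1.43 to 1.48), and Tmem176a and Tmem176b, neighbouring membrane protein genes often found in type 17 cells, at 1.70 and 1.67. Il21 had 2 and 13 reads (1.89, 0.53 to 5.86). The gene at least 2-fold lower was Csf2, which encodes GM-CSF and is tied to pathogenic type 17 cells, with 95 reads in WT and 23 in Exon2KO (-1.98, -2.80 to -1.40). The other 4 tested genes were within 2-fold: Abcb1a, a drug efflux pump gene, at -0.99 (-1.07 to -0.92), Gpr65 at -0.13, Klrb1 at 0.22 and Abcb1b at 0.29.

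Of the upstream genes of the IL-23, IL-6 and IL-1 axis, 1 of 13 tested was at least 2-fold higher and none at least 2-fold lower. That gene was Il1r1, the signalling receptor for IL-1, with 164 and 824 reads (2.29, 2.06 to 2.55). The lowest ratio was that of Stat3, the factor activated by IL-6 and IL-23, at -0.64 (-0.68 to -0.61), and 10 of the 13 ratios were below 0. In the IL-22 list of 3 tested genes Iltifb was at least 2-fold higher, and Il10rb, the shared chain of the IL-22 and IL-10 receptors, was lowest at -0.55 (-0.71 to -0.39).

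The 14 genes of IL-17 receptor signalling were all within 2-fold. They ranged from -0.95 for Nfkbiz, which encodes IκBζ, to 0.62 for Tab2, an adaptor of the TAK1 kinase, and 10 were below 0. Of the other IL-17 ligands and receptors, 4 of 7 were tested. Il17rb, the IL-25 receptor chain, was lowest at -0.96 (-1.44 to -0.53). Il17c, with 2 and 9 reads, was highest at 1.44 and was counted as higher by the 2-fold rule. Its interval was -0.13 to 5.39, so no difference was detectable at this depth.

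Of the other type 17 transcription factors, 1 of 10 was at least 2-fold higher. This was Ikzf3, which encodes Aiolos, with 4179 and 8987 reads (1.08, 1.03 to 1.13). Batf, an AP-1 factor that opens type 17 genes, was lowest at -0.83 (-0.89 to -0.78), and Irf4, its partner, was at 0.86 (0.74 to 0.99). Of 7 tested factors described as restraining type 17 genes, only Nr1d1 was past 2-fold, at 1.42 (1.25 to 1.59); it encodes REV-ERBα, which competes with RORα for its DNA motif. The lowest of them was Nr2f6 at -0.80 (-1.68 to -0.06).

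**Figure D3:**
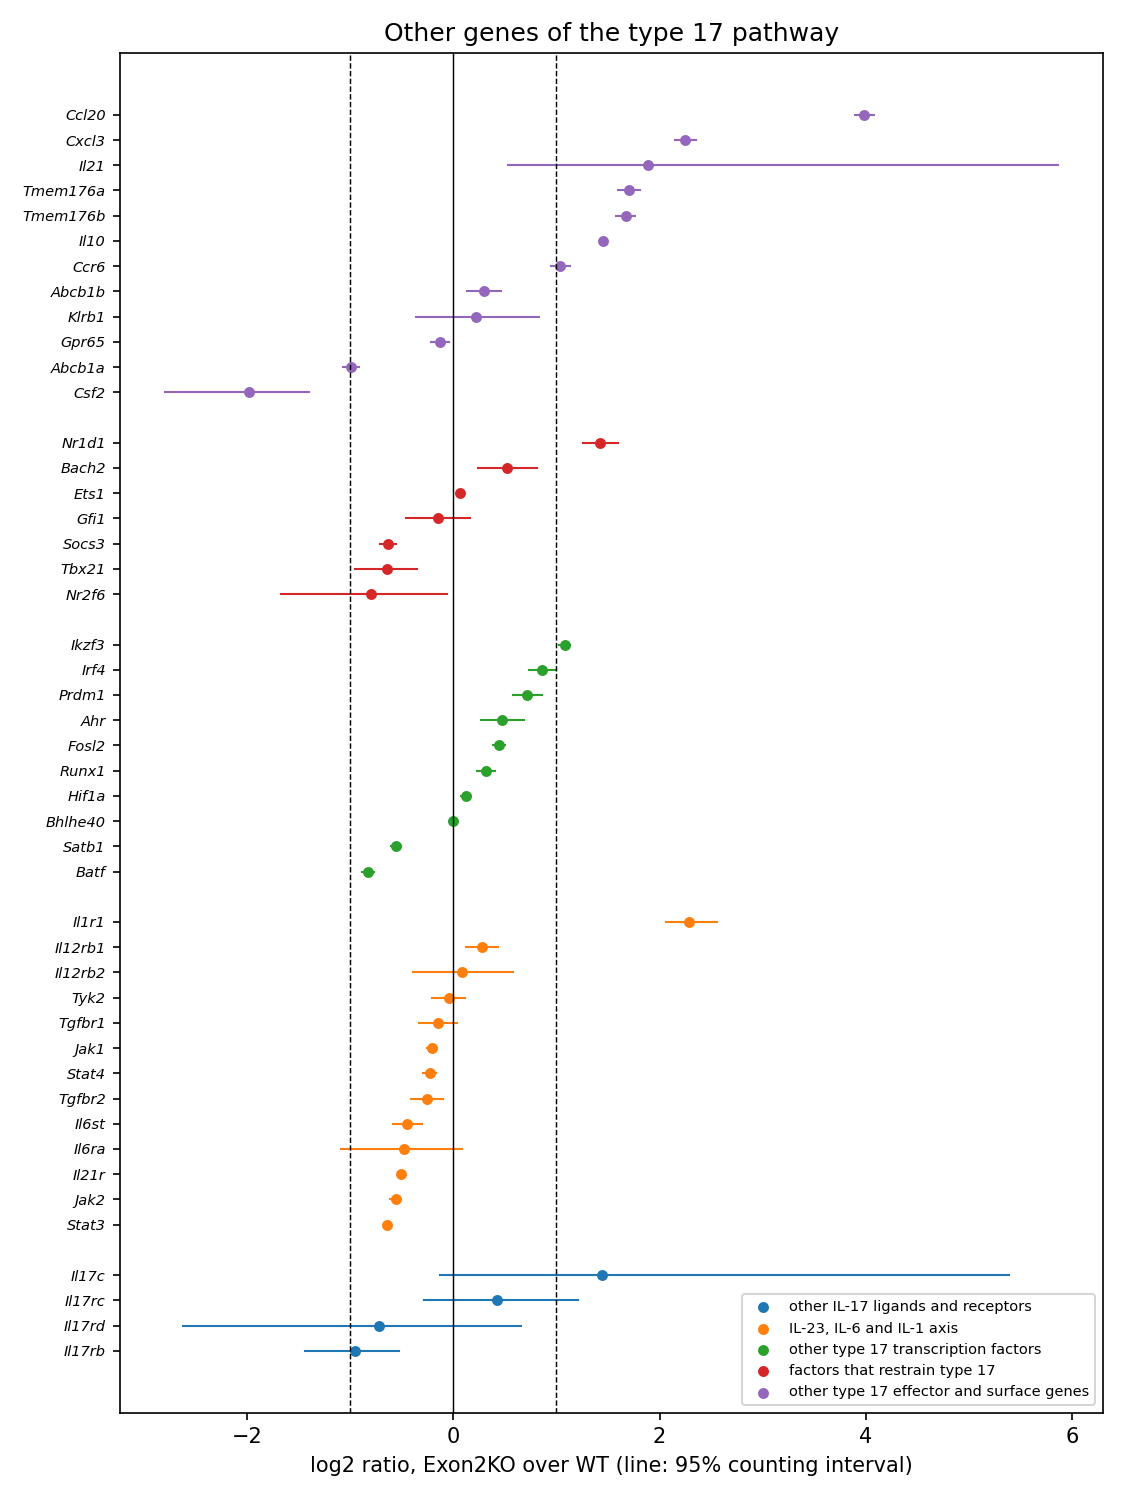
Log2 ratio of Exon2KO over WT for the tested genes of 5 other type 17 lists, with the 95% counting interval as a line; dashed lines mark 2-fold. Effector and surface genes, led by Ccl20 at 3.99, reach further right than the receptor and kinase genes of the IL-23, IL-6 and IL-1 axis, where Il1r1 alone passes 2-fold.

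Epithelial genes that IL-17 or IL-22 induce were also read in these libraries. Of 9 tested, 6 were at least 2-fold higher and 1, Lcn2, at least 2-fold lower (-1.07, -1.60 to -0.61). Pigr, the transporter of IgA, had 32 and 474 reads (3.78, 3.34 to 4.43), and the highest was Reg3b, an antimicrobial lectin, with 3 and 3511. The others past 2-fold were Reg3g, with 0 and 805 reads, Cxcl5, with 22 and 148, Fut2, with 3 and 18, and Duoxa2, with 1 and 14. The epithelial cell markers themselves were at least 2-fold higher in 9 of 12 cases, with a summed level of 97.9 CPM in WT and 383 in Exon2KO and none at 0. Epcam gave 49.8 CPM of the WT sum but 38.1 of the Exon2KO sum (-0.39, -0.54 to -0.23). The log2 ratios of the markers ranged from -0.93 for Muc2 to 4.08 for Krt19. The part of epithelial RNA in these values was not tested.

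Among markers of other cells that can make IL-17, the gamma-delta T cell list moved with Il17a. Of its 9 genes, 7 were at least 2-fold higher and 1 at least 2-fold lower, none was at 0 in either library, and the summed level was 15.2 CPM in WT and 136 in Exon2KO. The scavenger receptor gene 5830411N06Rik went from 20 to 822 reads, the gamma chain constant gene Tcrg-C1 from 123 to 1034 and Cd163l1 from 4 to 56. Trdc, the delta chain constant gene, had 14 reads in WT and 13 in Exon2KO (-0.12, -1.34 to 1.06), and Trdv4, a delta variable segment, had 15 and 1. The gamma chain and scavenger receptor genes thus went with Il17a and the delta chain genes did not; the part of gamma-delta T cells in the Il17a reads was not tested.

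The group 3 innate lymphoid cell list had 1 of 7 genes at least 2-fold higher (Ncr1, with 0 and 10 reads) and 1 lower (Kit, at -1.48), and its summed level of 3062 CPM in WT and 3742 in Exon2KO came mostly from Id2, which T cells also express. In the MAIT and NKT list Zbtb16 had 11 and 32 reads, Trav11 had 0 in both libraries, and the sums were 2.36 and 3.002 CPM. The CD8 T and NK list summed to 100 CPM in WT and 65.9 in Exon2KO, with 2 of 7 genes at least 2-fold lower and none at 0. For B and plasma cells the sums were 7957 and 7396 CPM, with 1 of 8 tested genes higher and 2 lower. For myeloid cells they were 36.9 and 40.4 CPM, with 1 of 8 lower and Itgax at 0 in both. In each of these 5 lists the sums of the libraries differed by less than 2-fold.

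T cell identity genes summed to 8566 CPM in WT and 6652 in Exon2KO, with 1 of 13 at least 2-fold lower (Cd5, -1.04) and Cd3e at 0.00. Per 1000 reads of these T cell genes there were 1.41 reads of Il17a in WT and 113 in Exon2KO. The same quantity was 2.42 and 11.0 for Il23r, 17.4 and 45.6 for Maf, and 142 and 99.4 for Rora. Il17ra changed direction on this scale, from 8.46 to 9.13, since the T cell genes as a sum were lower in Exon2KO. The other members kept the direction they had relative to all reads.

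**Figure D4:**
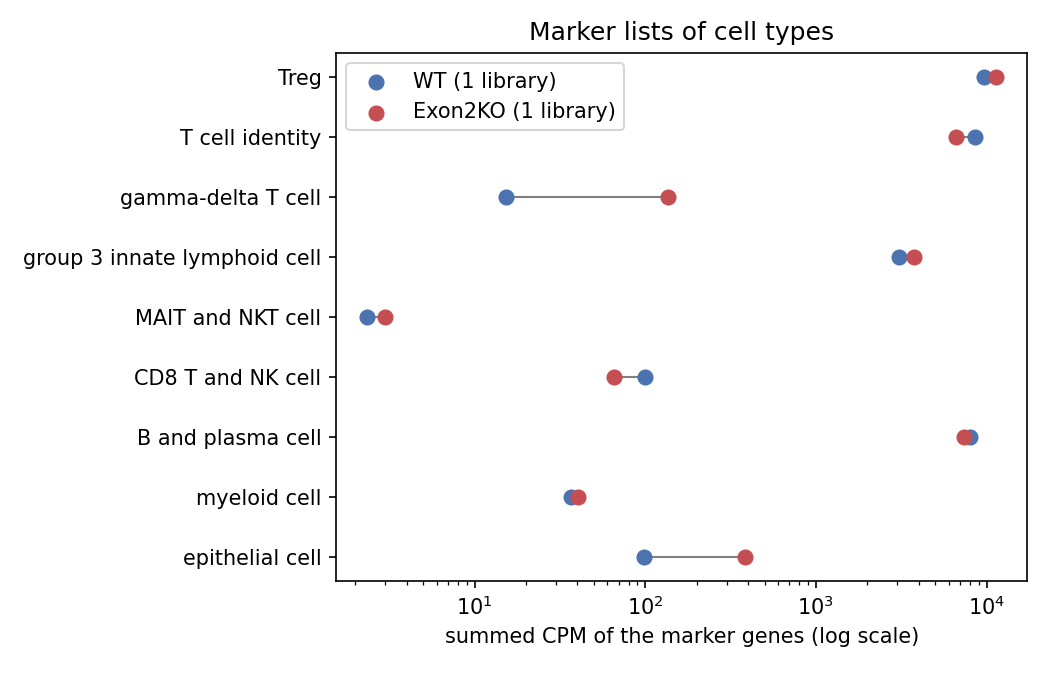
Summed CPM (log axis) of the marker genes of each cell type in the WT library and the Exon2KO library; each point is 1 library. The gamma-delta T cell sum (15.2 and 136) and the epithelial sum (97.9 and 383) differ most, and T cell and Treg sums are within 2-fold; Ctla4 gives most of the Treg sum.

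With 2 libraries, likeness to Il17a is 1 number, the distance between log2 ratios. Among protein-coding genes that reached 100 reads in WT or Exon2KO, the nearest to Il17a were Hsd3b3, Car1 and Mettl7b. Car1 had 24 and 1830 reads and a log2 ratio of 6.11 (5.65 to 6.87). Hsd3b3 had 0 and 126 reads, with a lower 95% limit of 5.05 for its log2 ratio. Mettl7b had 1 and 135 reads, with an interval of 4.55 to 12.4. The places of Hsd3b3 and Mettl7b depend on the prior count, so no order among the 3 is read from them. None of them came near its abundance in Exon2KO: Car1, the highest, was at 92.2 FPKM there, against 645 for Il17a.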

How the data were processed

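The authors deposited raw read counts and FPKM values per gene for 1 WT and 1 Exon2KO library. Per the submitters' processing notes, HISAT2 2.0.5, StringTie 1.3.3b, featureCounts 1.5.0-p3 and DESeq2 1.16.1 were used with mm10; their settings and the use of strand are not given in the sources used here. The deposited FPKM equal FPKM recomputed from counts, gene length and totals times 1.03 (WT) or 0.969 (Exon2KO). The authors' deposited table also holds a scaled count signal, not used here, log2 fold changes, and p-values whose tool is not named.

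Counts were scaled with TMM factors (0.964 for WT, 1.04 for Exon2KO; edgeR 4.0.16, R 4.3.3). Log2 ratios compare Exon2KO with WT after a prior count of 2 was added. Their 95% intervals are Clopper-Pearson limits for the Exon2KO share of a gene's reads, without the prior count. Where a library had 1 to 3 reads, the interval is the guide. edgeR's quasi-likelihood test needs replicates and could not be fitted, so a gene was called when its ratio was at least 2-fold, among the 17363 genes that had 10 or more reads in the libraries together. edgeR's exact test with an assumed BCV of 0.2 or 0.4 used Benjamini-Hochberg adjustment over all these genes. The ratios, the intervals and the exact test at a BCV of 0.2 were run on simulated libraries that hold counting error only. That simulation has no spread between samples, so it cannot show how the calls would fare under such a spread. A count of 0 allows up to 0.191 CPM in WT and 0.188 in Exon2KO (3 reads). The reads carry no molecular identifiers, so intervals cover counting error only. Alternatives in scaling, prior count, read minimum, fold and call rule were computed.

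Some genes are not reported here, and the list counts leave them out. The members and lists were chosen with earlier results of these data known. The naming rule took the 8 members, list genes past 2-fold with each list's highest and lowest, flanking genes with at least 10 reads and the 3 genes nearest to Il17a. Most cell type markers that met it are given only as counts, and a few further list genes were named after their values were seen. Python 3.11.15 with scipy 1.17.1, numpy 2.4.6 and pandas 2.3.3 was used.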

Additional observations from a re-analysis of the deposited data

How the results depend on the processing

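Under 4 other scalings (DESeq2 size factors, total counts, upper quartile, and TMM with immunoglobulin, haemoglobin and mitochondrial genes set aside) and 2 other prior counts, the same 6 of the 8 type 17 genes stayed at least 2-fold higher and none was lower. Of the 48 recomputed log2 ratios, 46 stayed within the counting interval, and the 2 that moved out were those of Maf and Rora with total counts (1.13 and -0.77), a scaling that raises the median of all genes from 0.0035 to 0.1085. With total counts 60.2% of all calls were higher, against 53.5% with TMM. A 1.5-fold threshold counted Rora as lower, 1 gene in place of 0, and gave 2922 genes higher and 2647 lower over the table; a 4-fold threshold gave 499 and 408 and kept Il17a, Il17f, Il22 and Il17re. A minimum of 1 read (24333 genes tested) gave 2643 genes higher and 2844 lower over the table, and a minimum of 50 reads (12730 tested) 649 and 685. The higher share of the calls was then 48.2% and 48.7%, so the balance of higher and lower calls turned. An assumed BCV of 0.2 in edgeR's exact test gave 579 and 536, and left 5 of the 8 genes; 0.4 gave 86 and 78, and left 2, Il17a and Il17f. Adding an exact binomial test of the reads to the 2-fold rule kept the same 6. That test covers counting error only, and the counting intervals of these genes already lay above 0, so it adds no further support. No paired analysis was possible because each genotype has 1 library, which also leaves no library to omit. Depth limits Iltifb, Il21 and Il17c, with 2 reads each in WT, to wide intervals.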

Other observations

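Loci outside Ensembl that the authors added flank 4 of the 8 genes and had their own counts. The locus 2.4 kb beyond the 3′ end of Il23r, on the same strand (chromosome 6, 67418280 to 67420574), held 40 WT reads and 233 Exon2KO reads, at a log2 ratio of 2.46 (2.03 to 3.04), against 1.81 for Il23r. The locus 0.8 kb beyond the 3′ end of Maf, listed on the opposite strand (chromosome 8, 115679661 to 115682149), had 62 and 194 reads (1.59, 1.20 to 2.06), against 1.03 for Maf. The locus 5.0 kb beyond the 3′ end of Rora, on its strand (chromosome 9, 69393257 to 69395818), had 66 and 37 reads (-0.83, -1.48 to -0.26), against -0.88 for Rora. Each of these 3 ratios has the sign of the neighbouring gene. The locus 15.3 kb before the start of Il17ra had 29 and 69 reads (1.17, 0.58 to 1.90), where Il17ra was at -0.25. Whether reads of these loci belong to transcripts of the named genes was not tested.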
